A study of Mus musculus with 4 samples.

Results

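The genes of 7 ligands and 3 receptors of the epidermal growth factor (EGF) family were placed into the topologically associating domains (TADs) found in AML12 cells under 2D culture and under 3D culture. The ligand genes were Epgn, Ereg, Areg, Btc, Tgfa, Egf and Hbegf, and the receptor genes were Egfr, Erbb2 and Erbb3. They were chosen by name and by no threshold on a value, though not independently of earlier results, and are 10 of the 21755 protein-coding genes with a start on the chromosomes covered. Of these 10 genes, 4 ligand genes (Epgn, Ereg, Areg and Btc) lie side by side on chromosome 5, and the 6 other genes each lie apart from the rest of the 10. Lying alone below refers to the 10 genes only, since the neuregulin gene Nrg2, of the pathway list used below, lies near Hbegf.

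AML12 is an immortalized mouse hepatocyte line derived from a mouse that carried a human TGF-alpha transgene, whose insertion site the labels do not give, so every value of Tgfa below describes the endogenous mouse locus. The assay was in situ Hi-C, which records contacts between genomic positions. In it, crosslinked chromatin is cut in the nucleus with MboI and ends that lie close together are joined and sequenced. Libraries came from 2 replicates of cells replated in dishes (2D) and 2 replicates of cells embedded in Matrigel (3D). All cells, in both cultures, had been treated with 1 mM hydroxyurea, over 24 h for the 2D culture or 36 h for the 3D culture, to hold them at the G1/S boundary, so the length of exposure and the culture cannot be told apart.

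A TAD is a stretch of chromosome whose positions meet each other more often than they meet positions beyond its ends. Enhancers are thought to act mostly on promoters of their own TAD, and the ends of TADs, called borders here, are often bound by the architectural protein CTCF. The EGF family ligands are made as membrane proteins, are released by proteases and activate ErbB receptor tyrosine kinases at the cell surface; in the liver this signalling is known for its part in hepatocyte growth and regeneration.

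The lists comprised 4467 TADs for 2D and 4355 for 3D, from 120 to 5720 kb and from 120 to 5960 kb long, and every end lay on a grid of 40 kb bins. Each culture gave 1 list, called by the authors on combined replicates and without a score or a read count, which leaves the depth of each TAD unknown. No value has a replicate error and no test between the cultures could be made. All counts below are therefore descriptions of these 2 lists. Intervals of shares are 95% Wilson intervals, which cover counting error only, and genes that share a TAD are not independent.

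All 10 genes started inside a TAD in both lists, where 72.7% of coding genes did so. The TADs of 9 of the 10 genes had the same 2 ends in 2D and 3D, and Erbb3 was the exception. Among the coding genes inside a TAD of both lists the share with the same 2 ends was 48.3% (95% interval 47.5 to 49.1%, 7644 of 15824 genes). With both ends allowed to differ by 40 kb, 9 of the 10 genes had a counterpart, against 66.9% of the coding genes in 2D TADs and 61.8% of those in 3D TADs. Because 4 of the genes share a TAD, the 10 genes stand for 7 TADs, of which 6 had the same ends, against 47.5% of the 4162 2D TADs that hold a coding start.

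The TADs of the 10 genes had a median size of 480 kb in both lists, with quartiles of 410 and 520 kb. The median over coding genes inside TADs was 320 kb in both lists, the quartiles were 160 and 1000 kb for 2D and 200 and 880 kb for 3D, and 9 of the 10 sizes in 2D lay between those quartiles. Over coding genes the share with the same ends varied with size and was 49.8% for 2D TADs of 120 to 200 kb, 56.5% for 240 to 400 kb, 55.3% for 440 to 600 kb and 42.0% for 640 to 2000 kb. Genes in 2D TADs longer than 2000 kb, where no member lies, are not in these classes. The part of size in the members' agreement was not tested. The start of a member lay a median of 132 kb from the nearest border in 2D and 131 kb in 3D. Over all coding genes the medians were 53.6 and 58.3 kb. Unlike the sizes above, these include genes that start outside TADs, while all 10 members start inside one, so the 2 sets are not alike. No border crossed the body of any of the 10 genes in either list, where 2D borders crossed the bodies of 14.9% of coding genes and 3D borders those of 13.8%.

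**Figure D1:**
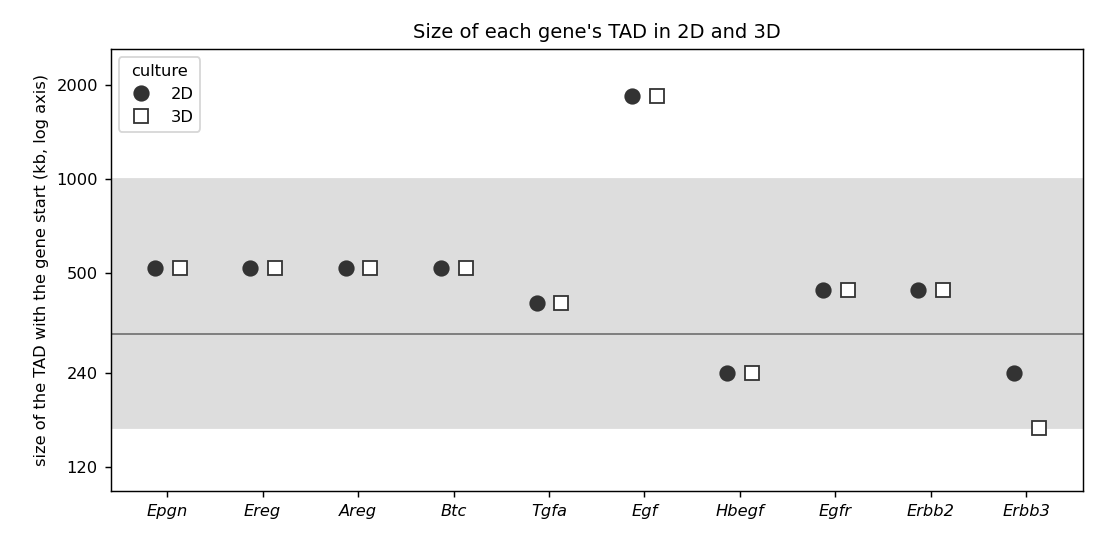
Size of the TAD that holds each gene's start (kb, log axis) in 2D (filled circles) and 3D (open squares), 1 value per culture; the line is the median over coding genes in 2D, 320 kb, and the band runs between the quartiles, 160 and 1000 kb. The pairs of symbols sit level for 9 genes, Egf lies above the band at 1840 kb, and Erbb3 drops from 240 kb to 160 kb.

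The 4 ligand genes on chromosome 5 shared 1 TAD, chr5:90920001-91440000 (mm10), which measured 520 kb in both lists. Epgn, the gene of epigen, lies at chr5:91027464-91035215 on the plus strand (ENSMUSG00000035020.11). Ereg, the gene of epiregulin, follows at chr5:91074622-91093646, also on the plus strand (ENSMUSG00000029377.5). Areg, which encodes amphiregulin, lies at chr5:91139599-91148432 on the plus strand (ENSMUSG00000029378.5). Btc, which encodes betacellulin, lies at chr5:91357261-91402994 on the minus strand and so points towards the other 3 genes (ENSMUSG00000082361.6). The 4 genes together spanned 376 kb, or 72.2% of their TAD.

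The starts of the cluster lay at different depths of the same TAD. The start of Epgn was 107 kb from the left border (the end with the lower coordinate), that of Ereg 155 kb and that of Areg 220 kb. Btc was the one ligand gene of the cluster beside a border, since its start lay 37.0 kb from the right border, in the last bin of the TAD. From start to start, Epgn and Ereg lay 47.2 kb apart, Ereg and Areg 65.0 kb, and Areg and Btc 263 kb. Between the bodies of Areg and Btc stretched 209 kb without a coding start, which held 2 other annotated starts, those of the small nuclear RNA gene Gm23092 and of the long intergenic RNA gene Gm19619. No border fell between any of the 4 genes in either list. Among neighbouring coding starts at the spacing of the ligands, 45.2% of 7741 pairs lay in 1 TAD in both lists, and 49.8% did so in 2D and 55.9% in 3D.

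The only other coding gene in the TAD of the cluster was Mthfd2l, a gene of mitochondrial folate metabolism. No interval outside TADs lay on either side of the TAD, and it stood in a run of 5 TADs with the same ends in 2D and 3D, with 3 on its left and 1 on its right. Such runs were shorter for 60.9% of the coding genes whose TAD had the same ends. The TAD directly to the left (chr5:90600001-90920000, 320 kb) held a group of CXC chemokine genes, among them Cxcl1, Cxcl2 and Cxcl5. The next one to the left (chr5:90360001-90600000, 240 kb) held Alb and Afp, the genes of albumin and alpha-fetoprotein. The TAD to the right (chr5:91440001-91960000, 520 kb) held Parm1. The run ended beyond Parm1, where 2D had an interval outside TADs followed by TADs of 120 kb and 3D had 1 TAD of 320 kb.

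**Figure D2:**
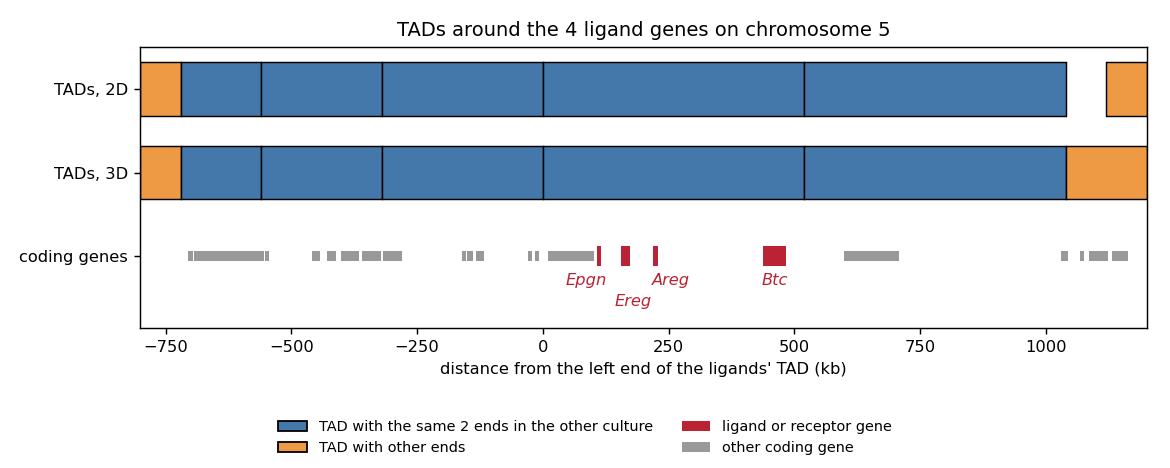
Map of the TADs (boxes) in 2D and 3D around the 4 ligand genes, with distance from the left end of their TAD in kb on the horizontal axis; blue boxes have the same ends in the other culture, orange boxes do not, white stretches lie outside TADs, red marks are the ligand genes and grey marks other coding genes. All 4 genes lie in the 520 kb box that starts at 0, with 3 blue boxes on its left and 1 on its right.

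The borders of the cluster were read for the core of the CTCF motif, a pattern of 12 bases searched on both strands in the 40 kb on each side of a border. In the genome 29.1% of the 63519 windows of this length held a match, and 52.9% of the windows around borders did so in each list. The left border of the cluster had 5 matches and the right border had none, which says only that these letters are not in that window. Of the 5 matches, 4 lie on the plus strand in an intron of Mthfd2l, 31.6 to 31.7 kb inside the TAD and 29 bases apart, and the fifth lies on the minus strand, between genes, 10.8 kb outside the TAD. They are printed because the left border of the ligands' TAD had the most matches of the member ends, and 4 of them are near copies of each other. Each is given 5′ to 3′ on its own strand in mm10, with the matched core in capitals, and the 4 plus-strand copies share the core letter for letter. A match is a description of the sequence and not evidence of binding.
chr5:90951623-90951652, plus strand: taccaacagCCAGTAGATGGCactgattac
chr5:90951652-90951681, plus strand: cctatccagCCAGTAGATGGCactgattac
chr5:90951681-90951710, plus strand: cctatccagCCAGTAGATGGCactgattac
chr5:90951710-90951739, plus strand: cctatccagCCAGTAGATGGCattgattac
chr5:90909167-90909196, minus strand: tgacagtggCCAGCAGGTGGCagacgagga

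Of the 3 ligand genes that lie alone, Tgfa sat nearest the middle of its TAD. Tgfa encodes transforming growth factor alpha, lies at chr6:86195223-86275719 on the plus strand (ENSMUSG00000029999.14) and was held by a TAD of 400 kb in both lists (chr6:86000001-86400000). Its start was 195 kb from the left border and 205 kb from the right one. The TAD held 6 coding starts, those of Figla, Add2, Tgfa, Fam136a, Snrpg and Pcyox1, in both lists. An interval of 80 kb outside TADs lay on its left in both lists. Neither neighbour kept its size, since from 2D to 3D the left one went from 160 to 120 kb and the right one from 120 to 320 kb.

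Egf, the gene of epidermal growth factor itself, had the largest TAD of the 10 genes. It lies at chr3:129677565-129755316 on the minus strand (ENSMUSG00000028017.7), in a TAD of 1840 kb in both lists (chr3:127960001-129800000). Of the coding genes that started inside a TAD, 87.2% in 2D and 87.5% in 3D lay in a smaller one. The TAD held only 4 coding starts, or 2.17 per Mb, in both lists. The start of Egf lay close to the right end of this long domain, at 97.6% of its length and 44.7 kb from the border. To the right of that border 2D had an interval of 80 kb outside TADs and a neighbour of 200 kb, and 3D had a neighbour of 280 kb that reached the border.

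Hbegf, which encodes heparin-binding EGF-like growth factor, had the smallest TAD of the ligand genes. It lies at chr18:36504927-36515805 on the minus strand (ENSMUSG00000024486.6), in a TAD of 240 kb in both lists (chr18:36320001-36560000). Its start was 44.2 kb from the right border, almost the same distance as that of Egf. The TAD held 5 coding starts in both lists, those of Cystm1, Pfdn1, Hbegf, Slc4a9 and Ankhd1. The border itself was the same, but the 80 kb to its right lay outside TADs in 2D and inside a TAD of 120 kb in 3D.

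The receptor genes Egfr and Erbb2, both on chromosome 11, had TADs of the same size with very different gene content. Egfr, the receptor that binds all 7 ligands, lies at chr11:16752203-16918158 on the plus strand (ENSMUSG00000020122.16) and is the longest of the 10 genes at 166 kb. Its TAD measured 440 kb in both lists (chr11:16520001-16960000) and held 2 coding starts, those of Egfr and Fbxo48, or 4.55 per Mb. The start of Egfr lay near the middle, 232 kb from the left and 208 kb from the right border. An interval of 80 kb outside TADs lay on the left in both lists, and beyond it the neighbour measured 3920 kb in 2D and 3880 kb in 3D.

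Erbb2, the receptor without a known ligand of its own that pairs with the other ErbB receptors, lies at chr11:98412470-98437716 on the plus strand (ENSMUSG00000062312.5). Its TAD measured 440 kb in both lists (chr11:98240001-98680000) and held 17 coding starts, the highest number among the 7 TADs, or 38.6 per Mb. Among the 16 partners, which were the same genes in both lists, were Stard3, Pgap3, Mien1 and Grb7, an adaptor that binds ErbB receptors, and also Ikzf3 and genes of the Gsdma family. The share of G and C was 40.6% in the TAD of Egfr and 48.1% in that of Erbb2, where the quartiles over 2D TADs were 40.9 and 46.4%. On the left of the Erbb2 TAD, 2D had an interval of 80 kb outside TADs and 3D had none, because the 160 kb neighbour lay 80 kb further right in 3D.

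Erbb3 was the only one of the 10 genes whose TAD differed between the lists. Erbb3 encodes a receptor with little kinase activity of its own that binds neuregulins and relays signals through its partners, and lies at chr10:128567523-128589652 on the minus strand (ENSMUSG00000018166.8). Its TAD was chr10:128480001-128720000 in 2D, 240 kb long, and chr10:128560001-128720000 in 3D, 160 kb long. The right end was the same and the left end lay 80 kb, or a pair of bins, further right in 3D. The TAD of a coding gene differed in size by a median of 40 kb between the lists, and by 80 kb or more for 32.1% of genes, so a difference of this size was not rare.

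The gene itself stayed inside its TAD in both lists, and what differed was its distance to the border. In 2D the body of Erbb3 ended 87.5 kb from the left border, and in 3D 7.52 kb from it, so that in 3D the whole gene lay in the first bin of its TAD. The start lay 110 kb from the left border in 2D and 29.7 kb in 3D, and 130 kb from the right border in both. The TAD held 13 coding starts in 2D and 8 in 3D, or 54.2 and 50.0 per Mb, the highest density among the 7 TADs. Erbb3 kept 7 partners, which were Pa2g4, Rps26, Ikzf4, Suox, Rab5b, Pmel and Cdk2. Pa2g4 encodes ErbB3-binding protein 1, Rab5b a GTPase of early endosomes and Cdk2 a kinase of the G1/S transition. The other 5 genes, Myl6, Myl6b, Esyt1, Zc3h10 and Rpl41, shared the TAD of Erbb3 in 2D, and in 3D their starts lay in the TAD on its left (chr10:128320001-128560000). The listed position of the 3D border between them falls in an intron of Pa2g4, so the body of this gene counts as crossed in 3D. Borders are known only to the 40 kb bin, so whether the border lies within this gene is not resolved. Each of the 9 other genes kept the same partners in both lists, from 1 for Egfr to 16 for Erbb2.

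The left border of the Erbb3 TAD is shown by sequence because it is the only member border at which the lists differed, and the right border is shown beside it. The left border of 2D and that of 3D had 3 CTCF core matches each, in both cases 1 on the plus strand and 2 on the minus strand. The shared right border had 2. Distances are taken from the listed border positions, which are known only to the 40 kb bin, so which match is nearest is not resolved. In 2D the match nearest the left border was on the minus strand, 14.2 kb inside the TAD, in a non-coding exon of Myl6b. In 3D the nearest was on the plus strand, 9.64 kb inside the TAD, in a coding exon of Erbb3, and another lay in an intron of Erbb3, 15.3 kb inside. Both sites within Erbb3 were inside the TAD in 2D as well, further from its border. The match nearest the right border lay 2.24 kb inside the TAD in a coding exon of Pmel. The sequences of the matches described here, which are not all the matches at these borders, are given 5′ to 3′ on their own strand in mm10 with the matched core in capitals.
Left border of 2D, chr10:128494181-128494210, minus strand: gcgttcctgCCACTAGGGGGCacttacagt
Left border of 3D, chr10:128569630-128569659, plus strand: ggagtcgtgCCAGCAGAGGGCacgatggcc
Left border of 3D, chr10:128575252-128575281, minus strand: tcagggagaCCAGCAGAGGGCactgtgttc
Right border of both, chr10:128717751-128717780, minus strand: cggtgtcatCCAGTAGAGGGCtaatggacc

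At the Erbb2 TAD the right border had 4 matches and the left border 1. Of the 4 on the right, the 2 inside the TAD were the same 30 bases, once in an intron of Gsdma2, 24.7 kb from the border, and once in an intron of Gsdma, 6.61 kb from it. They are printed because the same run occurs in introns of neighbouring genes of 1 family beside a member's border, on the minus strand of mm10 with the core in capitals.
chr11:98655277-98655306, minus strand: agctgttatCCAGCAGGGGGCgccataggc
chr11:98673385-98673414, minus strand: agctgttatCCAGCAGGGGGCgccataggc

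Counted over the 7 TADs of the 10 genes, 10 of the 14 ends (71.4%) had at least 1 core match in each list, against 52.9% of all borders. The mean was 1.71 matches per member end, 0.821 per border of either list and 0.397 per window over the genome. Every copy was counted, so the mean of the member ends includes the near copies at the left end of the cluster and the identical runs at the right end of the Erbb2 TAD. Both ends of the Egfr TAD, the left end of the Egf TAD and the right end of the ligand cluster had none, and the highest numbers were 5 at the left end of the cluster and 4 at the left end of the Hbegf TAD and at the right end of the Erbb2 TAD. The end that differed, at Erbb3, had 3 matches in each list, within the range of the ends that were the same.

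**Figure D3:**
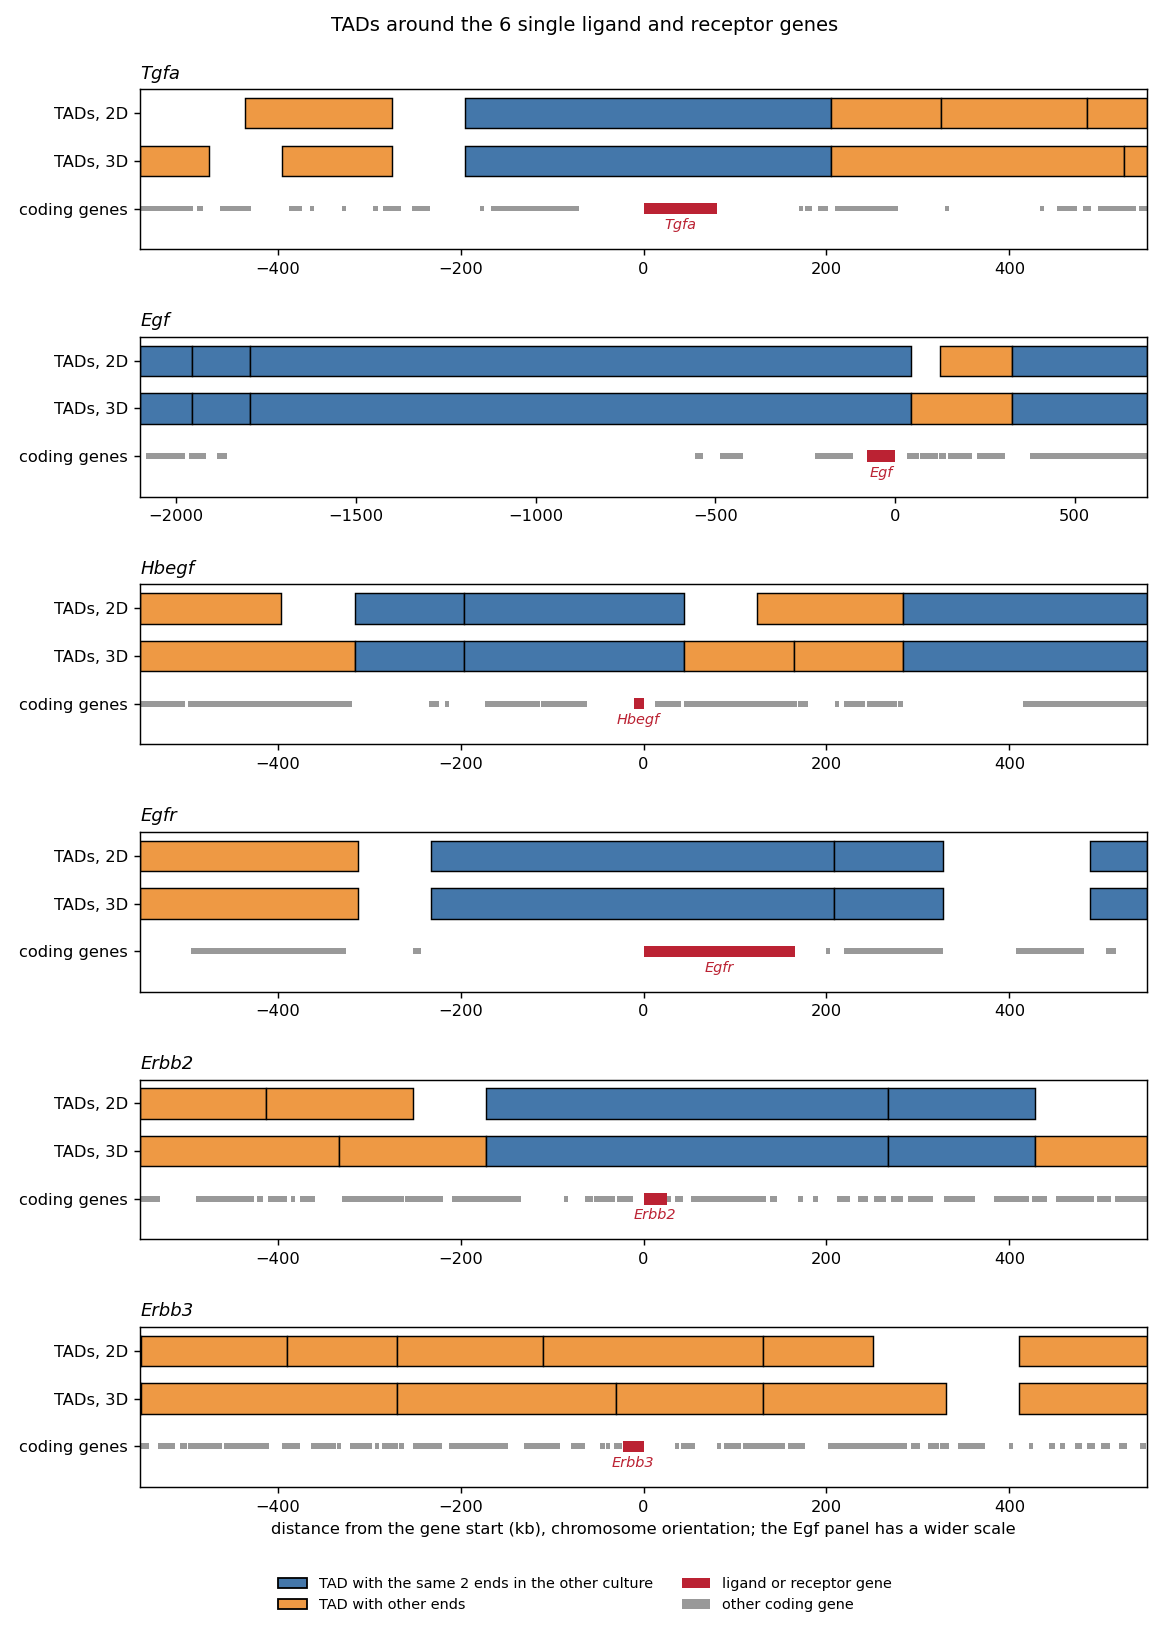
Maps of the TADs in 2D and 3D around the 6 genes that lie alone, with distance from the gene start in kb along the chromosome (the Egf panel has a wider scale); blue boxes have the same ends in the other culture, orange boxes do not, and white stretches lie outside TADs. The box of the red gene is blue for 5 genes and orange for Erbb3, whose left end is 110 kb from the start in 2D and 29.7 kb in 3D.

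Clustered and single genes were then set side by side. The TAD of the cluster measured 520 kb, and the TADs of the 6 single genes ranged from 240 to 1840 kb in 2D and from 160 to 1840 kb in 3D, with a median of 420 kb in both. Agreement was 4 of 4 genes for the cluster, which is 1 TAD of 1, and 5 of 6 for the single genes. Over all 14 ends of the 7 TADs, 13 lay at the same position in both lists, where 64.1% of all 2D borders and 69.8% of all 3D borders did. These shares hold for exact positions only. Within 40 kb the number of member ends was also 13, but no share of all borders was computed at that distance. Whether the member ends differ from all borders there was not tested. The paper describes the large majority of borders as overlapping between the cultures at its resolution. The count of 13 depended on the definition of a border. With only positions where 2 TADs meet, fewer ends qualified and 8 were shared in each list, and no share of all borders is given for that definition. In 2D, 5 of the 14 ends faced an interval outside TADs, of 80 kb each (35.7%, where 35.3% of all TAD ends faced an interval of any length), and in 3D 2 ends did (14.3%, against 27.4%). The ends that faced such an interval in 2D alone were those of Egf, Hbegf and Erbb2, and those of Tgfa and Egfr faced it in both. The cluster and Erbb3 had none in either list. The cluster is a single TAD, so no spread can be given for it and whether it differs from the single genes was not tested.

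The rest of the pathway was followed with a list of 39 genes, made up of Erbb4 and the neuregulin genes, proteases and cofactors of ligand shedding, the signal relay behind the receptors, and genes of feedback and receptor removal. Fewer of these genes than of the 10 had identical TADs. Of the 39, 28 started inside a TAD in both lists, and 8 of the 28 (28.6%) had the same 2 ends, below the 48.3% of coding genes given above. A further 9 had both ends within 40 kb, and 11 had other ends. The remaining 11 started outside TADs in 2D, and 6 of them did so in 3D as well, where 23.3% and 16.5% of coding genes did.

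Among the groups, none of the 5 genes of Erbb4 and the neuregulins had the same ends, against 2 of 4 shedding genes, 4 of 22 relay genes and 2 of 8 feedback genes, where the share over all 21755 coding genes was 35.1%. These numbers include genes that started outside TADs in a list and so could not have the same ends, which were 2 of the 5, 1 of the 4, 7 of the 22 and 1 of the 8. Where the size differed it was mostly larger in 3D, for 15 of the 28 genes against 4 that were smaller, while 30.8% of coding genes inside TADs of both lists had a larger and 20% a smaller TAD in 3D. The largest differences were in the signal relay. Pik3r1, the regulatory subunit of PI3 kinase, lay in a TAD of 1840 kb in 2D and 2880 kb in 3D. Sos2, an exchange factor for Ras, lay in TADs of 120 and 520 kb. Map2k2, the kinase MEK2, lay in TADs of 200 and 520 kb, and Gab2, a docking protein, in TADs of 240 and 440 kb. In contrast to these, Erbb3 had the smaller TAD in 3D. The median size was 260 kb over the 28 pathway genes inside 2D TADs and 320 kb over the 33 inside 3D TADs, which are not the same set of genes.

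**Figure D4:**
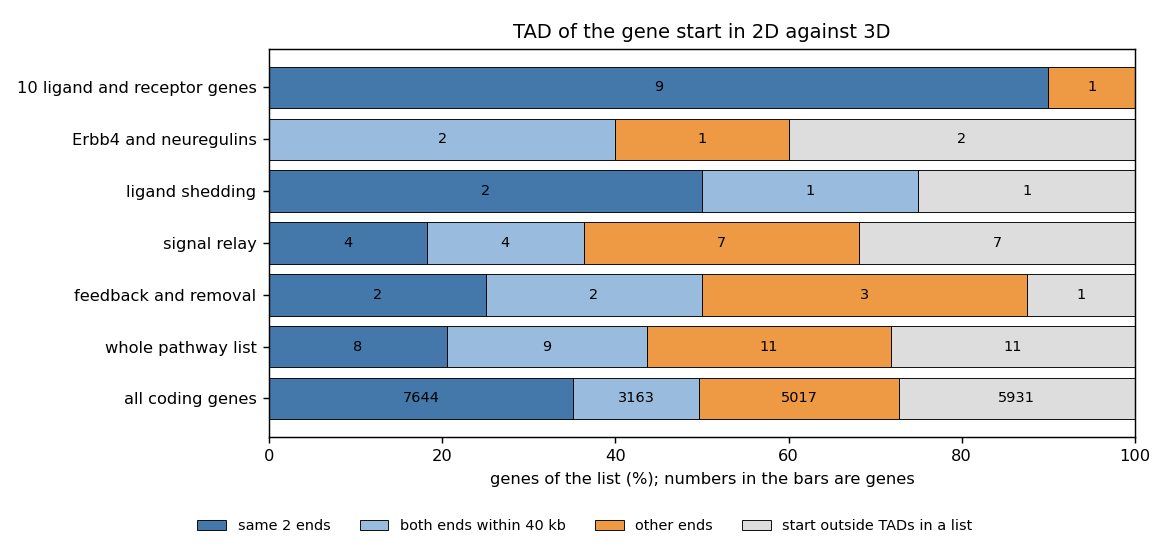
Share of genes (%) whose TAD had the same 2 ends in 2D and 3D, both ends within 40 kb, or other ends, or whose start lay outside TADs in a list, for the 10 ligand and receptor genes, the pathway groups and all coding genes; numbers in the bars are genes. Same ends were found for 9 of 10 ligand and receptor genes and for 8 of the 39 pathway genes.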

How the data were processed

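Hi-C contacts were measured in 4 samples. The deposited files hold another kind of value than read counts, namely TAD start and end positions in bases of mm10, with 1 list for each culture, as called by the authors. They mapped reads with Bowtie2 (version 2.2.9), combined replicates, used bins of 40 kb, applied ICE normalization, set both cultures to the same depth per chromosome and called domains with Armatus at a gamma of 0.8. Differences under 1 bin of 40 kb cannot be seen. Genes were taken from GENCODE M21, and sequences from GRCm38, the build of mm10. A gene belongs to the TAD that holds its start, and a counterpart has both ends within 40 kb. Coordinates are 1-based. Python (3.11.15) with numpy (2.4.6), pandas (2.3.3) and matplotlib (3.10.9) was used, and the measures were tested on simulated lists, where 5 of 5 returned the known values. The lists and motif, like the members, were chosen with earlier results of these data known. All 10 members and up to 5 pathway genes with the largest size difference were to be named (the fifth place is tied and left out), and genes sharing a TAD by position. The alternatives were other distances, overlaps, gene positions, gene sets and border definitions. The contact matrices were not analysed here, and protein sequences were not used here.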

Additional observations from a re-analysis of the deposited data

How the results depend on the processing

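Of 52 alternative values, 11 moved and 41 did not, where a count moved if it changed by over 1.5 times, a size or distance if it changed by over 40 kb, and a share of coding genes if it left its 95% interval, and 4 of the 52 belong to alternatives chosen after seeing the data. Some of the 41 could not have moved. Because no border crossed a member's body, taking the midpoint or the whole body could not change which TAD held a member. For the same reason, a narrower definition of borders could not add a crossing. These values say nothing about stability. With only positions where 2 TADs meet as borders, the shared borders beside the members numbered 8 of the 9 ends that qualify in 2D and 8 of the 12 in 3D, against 13 of 14. The share of coding genes with a counterpart, 66.9% in 2D and 61.8% in 3D, was 45.8 and 42.1% with ends at the same position, 76.3 and 72.3% within 80 kb, 88.6 and 86.0% with a reciprocal overlap of 50%, 71.3 and 66.0% with one of 80%, and 63.3% in 3D over all annotated genes. The members with a counterpart numbered 9, and 10 within 80 kb or with an overlap of 50%, where Erbb3 joined them. The median TAD size of the members was 440 kb with each TAD counted once, and 520 kb in 3D without TADs under 200 kb, which drops Erbb3.

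No paired analysis was possible because each culture gave 1 list, called on combined replicates, and these lists do not allow a replicate to be left out. The contact data of single replicates were not analysed here. The depth behind a TAD is unknown, positions are known only to the 40 kb bin, and 7 TADs are too few to compare clustered with single genes.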
